A study of Mus musculus with 15 samples.

Results

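The replication-dependent histone genes are the multicopy genes that encode the bulk of the histones packing newly made DNA. They were taken here as every gene whose mouse symbol begins with Hist1h, Hist2h, Hist3h or Hist4h in the GENCODE vM21 annotation. The rule found 68 genes in a count table of 48440 genes, of 70 such symbols in the annotation. Of the 68, 53 had 10 or more counts summed over the 15 libraries, 7 had 1 to 9 and 8 had 0. The cells were primary lung fibroblasts of C57BL/6 mice, grown in 3% oxygen. There were 5 groups of 3 libraries: unirradiated Atm+/+ and Atm-/- cells, each at passages 2 and 8, and a further Atm+/+ group, labelled passage 2, whose cells received 10 Gy of X-rays and were harvested 10 days later. Per the series' design text, 3 cell strains were established per genotype, and the irradiated group served as a control for stress-induced senescence. The labels give no irradiated Atm-/- group, no sham-irradiated cells held for 10 days, and do not say which part of Atm the mutant allele removes.

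Replication-dependent histone genes are switched on together as cells enter S phase, when NPAT activates their transcription. Most of their mRNAs end in a stem-loop in place of a poly(A) tail. SLBP binds the stem-loop, the U7 particle guides the cut just after it, and the mRNA is destroyed when DNA replication stops. Some members can also be transcribed past the stem-loop and given a poly(A) tail, a form known from cells that have stopped dividing. H2A, H2B, H3 and H4 form the protein core of the nucleosome, and the linker histone H1 binds the DNA between cores. Whether these libraries were made from polyadenylated RNA or from RNA cleared of ribosomal RNA is not stated in the labels. A change in the amount of a histone mRNA and a change in its share with a tail therefore cannot be told apart.

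Because the 3′ end defines these mRNAs, the stem-loop was read from the annotated transcripts of each member. A 16-base histone stem-loop was present in the annotated transcripts of 42 of the 68 members, against 12 of 21836 other protein-coding genes (0.05%). The other 26 are not shown to lack one, because a loop beyond the end of an annotated transcript would not be found. Some of their transcripts are short, such as 312 bases in Hist1h4k and 381 in Hist1h2bl. The loops below show the 6 forms found, 1 member for each. They are read 5′ to 3′ on the gene's strand, the capitals mark the 2 arms and the loop, and the lower-case letters are the 5 bases on either side.
Hist1h1c: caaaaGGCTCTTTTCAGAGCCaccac
Hist1h3e: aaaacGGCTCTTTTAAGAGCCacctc
Hist2h2ac: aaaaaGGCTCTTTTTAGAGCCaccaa
Hist1h4h: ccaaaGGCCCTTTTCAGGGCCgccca
Hist1h4i: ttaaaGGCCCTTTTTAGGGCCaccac
Hist1h4j: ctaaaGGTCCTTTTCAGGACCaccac
In GRCm38, the capitals lie at chr13:23739512-23739527 (plus strand) in Hist1h1c, chr13:23561903-23561918 (minus) in Hist1h3e, chr3:96220418-96220433 (minus) in Hist2h2ac, chr13:23531458-23531473 (plus) in Hist1h4h, chr13:22040966-22040981 (minus) in Hist1h4i and chr13:21735437-21735452 (plus) in Hist1h4j. The form of Hist1h1c was shared by 24 members, none of them an H4 gene. The form of Hist1h4h was found in 7 members, all H4. The other 2 H4 forms were each found in 2 H4 genes, that of Hist1h3e in 6 members of H1, H2B and H3, and that of Hist2h2ac in that gene alone. Thus no 16-base form was shared between H4 and another family. Among the genes shown, annotated transcripts of 3 that are described below ran far past the loop, by 840 bases in Hist1h1c, 330 in Hist1h4i and 385 in Hist1h4j. That of Hist1h4h ended 46 bases after it.

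Promoters were read from RefSeq for 60 members (250 bases before to 50 after the annotated start, GRCm38.p6). Those of 3 members that differed between the groups are shown, 150 bases up to the start on the gene's strand, with capitals marking motifs found on either strand.
Hist1h1c: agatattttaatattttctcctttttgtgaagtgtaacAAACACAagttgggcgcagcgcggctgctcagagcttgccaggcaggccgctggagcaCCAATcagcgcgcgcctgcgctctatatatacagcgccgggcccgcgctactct
Hist1h2ba: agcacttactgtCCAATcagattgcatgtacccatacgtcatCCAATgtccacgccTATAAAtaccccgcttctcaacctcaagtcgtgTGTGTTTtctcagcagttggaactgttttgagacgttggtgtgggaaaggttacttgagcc
Hist1h4i: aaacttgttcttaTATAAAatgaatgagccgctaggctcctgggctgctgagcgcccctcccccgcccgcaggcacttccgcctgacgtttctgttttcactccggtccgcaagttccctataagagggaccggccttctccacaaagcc
These stretches are chr13:23738657-23738806 (plus), chr13:23934157-23934306 (minus) and chr13:22041363-22041512 (minus). The search covered both strands and 4 motifs that do not contain one another. They were the CCAAT box, the TATA box spelled TATAAA, the octamer ATTTGCAT and the H1 box AAACACA, which reads TGTGTTT on the other strand. CCAAT was in 51 of the 60 histone promoters against 37.4% of 32851 promoters of the same length in the table, and was in every H1, H2A, H2B and H3 promoter read but in 3 of 12 H4 promoters. The octamer was in 7 of 18 H2A and 5 of 14 H2B promoters and in no H1, H3 or H4 promoter, against 1.7% of all. AAACACA was in 5 of 6 H1 promoters against 7.2% of all, and TATAAA in 35 of the 60 against 13.6%. A match is a run of letters and no evidence that a factor binds there. Its position was not considered, and the TATAAA marked in Hist1h4i lies near the far end of its stretch. The annotated starts were not checked.

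The families were unevenly counted. Over the 15 libraries the members gathered 195109 counts, of which H1 genes held 52.8%, H2B genes 39.31%, H4 genes 4.35%, H2A genes 1.83% and H3 genes 1.72%. On the per-length scale of the deposited TPM, averaged over the 15 libraries, Hist1h1c stood at 209.5, Hist1h2bc at 143, Hist1h2ba at 37.66, Hist1h2bg at 25.25 and Hist1h4h at 18.28, and no other member was above 18.1. Hist1h1c encodes the linker histone H1.2, and Hist1h2ba an H2B first described in testis. Near-identical copies limit what can be counted. In 20 members under 20% of the 50-base windows of the annotated transcripts were found in no other gene. Of these 20, 10 had 10 or more counts and 6 had 0. Of the 32 members with 50% or more unique windows, 30 had 10 or more counts and 1 had 0, Hist1h2aa. The unique share was 91.5% in Hist1h1c, 69.4% in Hist1h2bc, 71.1% in Hist1h4i, 54.2% in Hist1h4h and 36.5% in Hist2h3c2. In Hist1h2br it was 11.3% and in Hist1h2bn 13.6%, so the values of those copies are uncertain. All 20 H2A genes were overlapped by a gene on the other strand, and the strandedness of the counting is not given in the sources used here. On the same strand, exons of Hist1h2be overlap Hist1h1e and those of Hist3h2a overlap Trim17, so these values may not be separate.

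**Figure D1:**
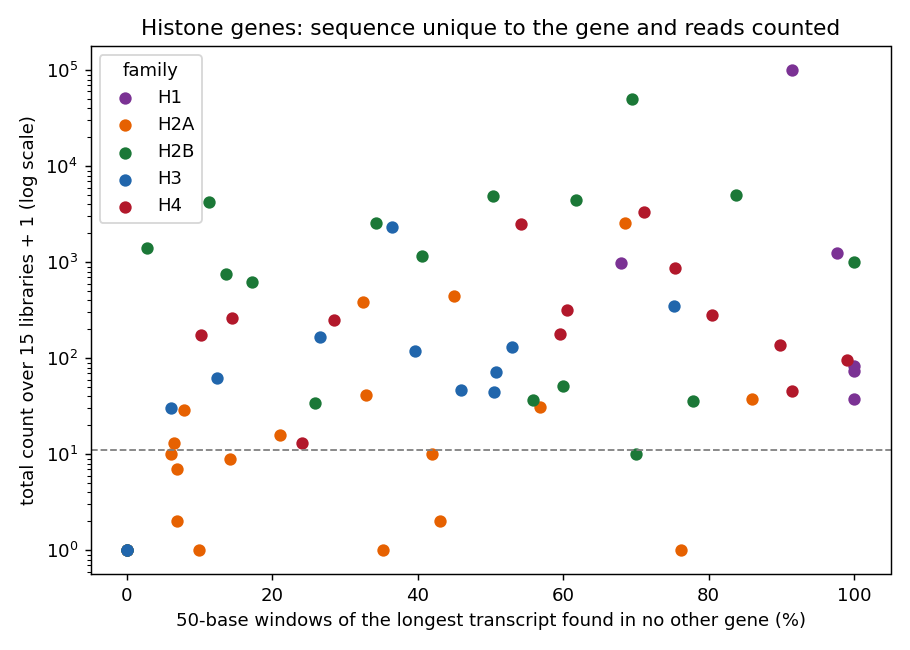
Each point is 1 of the 68 histone genes, coloured by family. The x axis is the percentage of 50-base windows unique to the gene, and the log y axis the total count over 15 libraries plus 1. The windows are those of all annotated transcripts of the gene, not of the longest alone as the axis reads. The dashed line marks 10 counts, and 11 of the 15 genes below it are H2A genes. At 0% and 0 counts, 5 points lie on one another.

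Just inside the limit of 10 counts were Hist1h2ao and Hist1h4b with 12 counts each, and just outside were Hist1h2ab, Hist1h2af and Hist3h2bb-ps with 9 each. A filter on low counts left 34 members in the test: 3 of 6 H1, 3 of 20 H2A, 11 of 17 H2B, 6 of 12 H3 and 11 of 13 H4 genes. The 19 other members with at least 10 counts had at most 19 counts in any library, among them Hist1h1a (72 counts in all), Hist1h1b (81) and the testis gene Hist1h1t (37). They were not tested.

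Library totals ranged from 13645592 to 39210772 counts. Replicate 3 of Atm+/+ passage 2 and replicate 3 of Atm-/- passage 8 stood apart. Thinned to the depth of the smallest library, they showed 17226 and 15037 genes, against 20101 to 21978 in the other 13, and they had 0 counts for 20 and 27 of the 53 members, against 1 to 14 elsewhere. Each count of histone genes is therefore also given without both, in a fit to 13 libraries that was chosen after seeing the data. Atm itself was at 0.873 to 2.37 CPM in libraries labelled Atm-/- and 0.877 to 3.10 CPM in those labelled Atm+/+. The groups overlapped, so gene-level counts do not check the genotype labels. The summed level of 7 fibroblast markers was 5336 to 8026 CPM in Atm-/- passage 8 cells and at least 13370 CPM in every other library. Macrophage markers, 8 genes, summed to 1913 to 3374 CPM in Atm+/+ passage 2 cells, 851 to 1405 CPM in Atm-/- passage 2 cells, 1192 to 2148 CPM after irradiation and 28.06 to 70.63 CPM at passage 8. Endothelial markers, 5 genes, summed to at most 10.52 CPM at passage 8 and 54.97 to 504.7 CPM elsewhere. In bulk RNA, fewer cells of a type and less RNA per cell cannot be told apart.

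The comparison of irradiated with unirradiated passage 2 Atm+/+ cells asks what differs 10 days after 10 Gy. Histone genes of H1, H2B, H3 and H4 were higher after irradiation. In edgeR's quasi-likelihood test with Benjamini-Hochberg adjustment over 18167 genes, 17 of the 34 tested members were higher and 0 lower, where 11% of all genes tested were called higher and 16.5% lower. The members' median log2 fold change was 1.65, against -0.01 over all genes. All 3 tested H1 genes rose, as did 7 of 11 H2B, 5 of 11 H4 and 2 of 6 H3 genes, and none of the 3 H2A genes passed. Unique windows among the 17 were as low as 2.7% in Hist1h2bq, 10.2% in Hist1h4m, 11.3% in Hist1h2br and 14.4% in Hist1h4n. Such copies may share reads, so the 17 are not all separate observations. Without the 2 libraries that stood apart, 26 of 36 members were higher and 0 lower, where 22.9% of all genes were called higher and 23.3% lower. Among the 26 was 1 H2A member, Hist1h2al (1.23, adjusted p = 0.0358). It is annotated as a processed pseudogene, with 32.4% unique windows, and no other H2A member was called. In 26 of the 34 every irradiated library was above every passage 2 library, which held for 27.3% of all genes. Macrophage marker sums overlapped between the 2 groups. The summed level of 5 smooth muscle and pericyte markers was 12420 to 14130 CPM after irradiation and 3163 to 4077 CPM before, and its part in the result was not tested.

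The linker histone gene Hist1h1c, the member with most counts, was at 381, 382 and 350 CPM in the irradiated libraries and at 112, 138 and 76.8 CPM in unirradiated passage 2 libraries. The lowest irradiated library lay far above the highest unirradiated one. This made a log2 fold change of 1.77, with an SE of 0.19 and an edgeR adjusted p of 7.48e-05. The other 2 tested linker genes were scarcer. Hist1h1d was at 6.61, 7.15 and 4.44 CPM after irradiation and at 0.124, 1.01 and 0.629 CPM before, a log2 fold change of 3.35 ± 0.91 (adjusted p = 0.016). Hist1h1e was at 5.50, 4.60 and 4.11 CPM against 0.0621, 0.685 and 0.435 CPM, a log2 fold change of 3.57 ± 0.83 (adjusted p = 0.00762). For both genes the groups did not overlap.

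Hist1h2bc, the H2B gene with most counts, stood at 131, 134 and 131 CPM after irradiation and at 64.8, 67.8 and 54.8 CPM in passage 2 cells. Its irradiated libraries lay close together and above the rest (log2 fold change 1.08 ± 0.13, adjusted p = 0.000102). The testis-described Hist1h2ba was at 12.5, 13.8 and 12.4 CPM against 3.69, 6.44 and 3.00 CPM (1.55 ± 0.25, adjusted p = 0.00094). Hist1h2be, whose annotated transcript runs 1861 bases past the stem-loop, was at 16.6, 18.0 and 17.2 CPM against 3.79, 5.07 and 1.64 CPM (2.29 ± 0.38, adjusted p = 0.00117). Hist1h2bj reached 4.13, 3.61 and 4.05 CPM against 0.931, 1.37 and 0.484 CPM (2.06 ± 0.39, adjusted p = 0.00271). None of these H2B genes overlapped between the groups. The 4 other tested H2B genes with no call included Hist1h2bf, at 9.53, 8.54 and 10.1 CPM against 1.99, 3.15 and 0.0967 CPM, whose adjusted p of 0.0805 became 9.39e-06 in the 13 libraries. Hist2h2be, on chromosome 3, was the H2B gene with a negative value (-0.67 ± 0.35, adjusted p = 0.17).

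Among H3 genes, Hist2h3c2 was at 5.34, 7.13 and 5.53 CPM after irradiation and at 1.80, 2.41 and 1.26 CPM before (1.71 ± 0.31, adjusted p = 0.00201). The other H3 gene that passed was Hist1h3d, with 3.23 ± 1.03 (adjusted p = 0.033). Among H4 genes, Hist1h4i was at 7.54, 9.63 and 8.75 CPM against 4.13, 4.30 and 4.74 CPM (0.98 ± 0.26, adjusted p = 0.0158). Hist1h4h was at 8.49, 8.85 and 7.21 CPM against 0.900, 1.04 and 4.40 CPM (1.98 ± 0.53, adjusted p = 0.0149). The 4.40 came from the passage 2 library that stood apart, and without the 2 such libraries the log2 fold change was 3.12. Hist1h4j showed the same spread more strongly, with 2.19, 3.00 and 2.26 CPM against 0.559, 0.603 and 3.34 CPM. Its groups overlapped and it did not pass (0.76 ± 0.56, adjusted p = 0.321), while in the 13 libraries it passed with 2.14. The H2A gene Hist3h2a did not differ detectably, at 3.90, 5.48 and 3.74 CPM against 4.81, 4.44 and 5.18 CPM (-0.13 ± 0.29, adjusted p = 0.748).

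**Figure D2:**
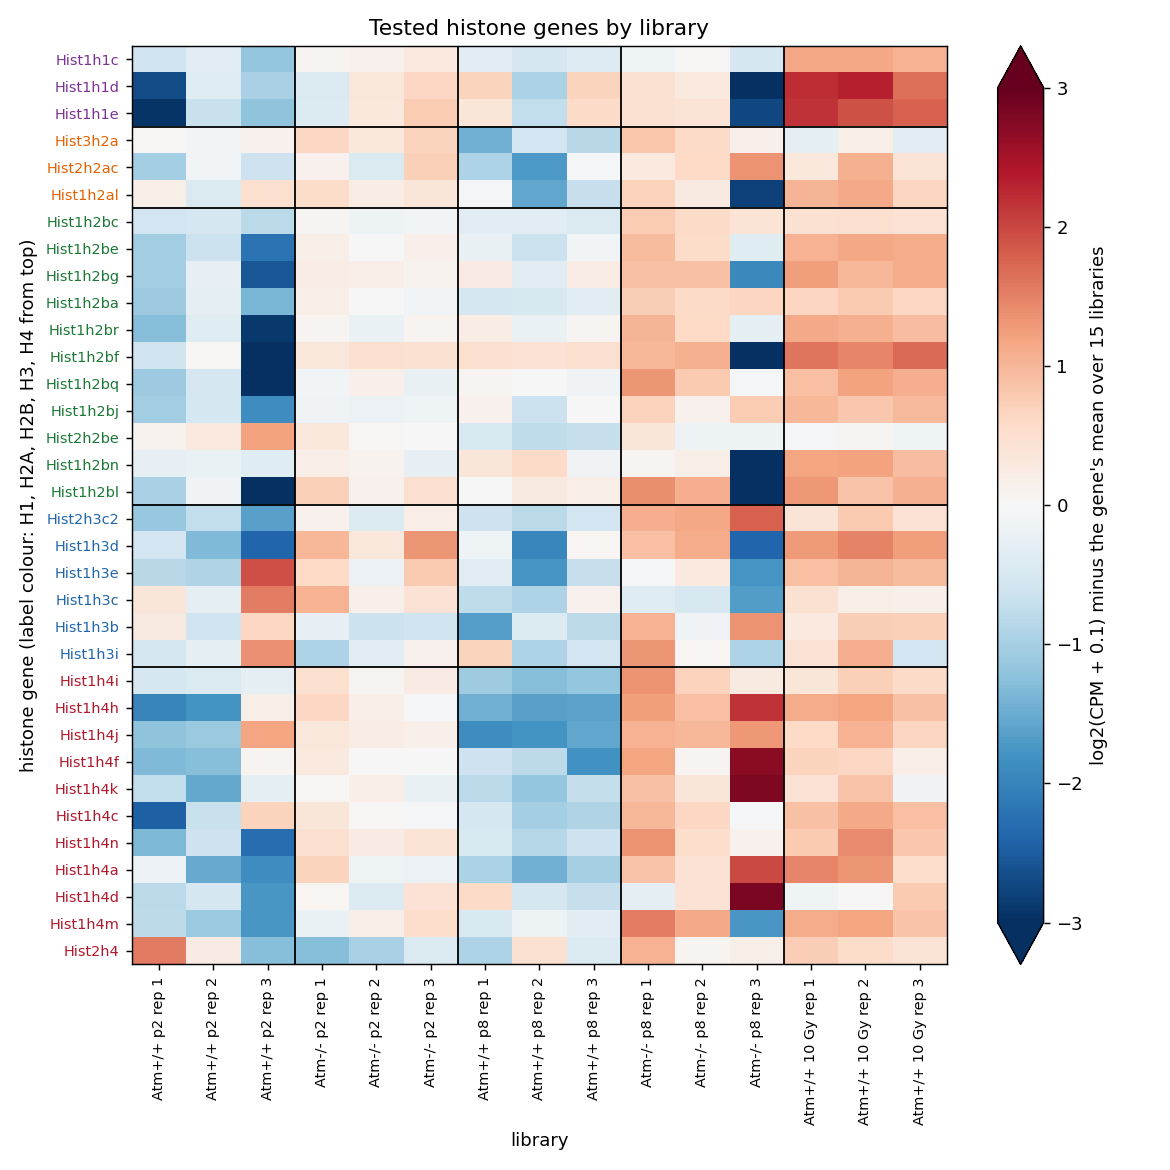
Rows are the 34 tested histone genes ordered by family (label colours), columns the 15 libraries in 5 groups of 3, and the colour is log2(CPM + 0.1) minus the gene's mean over all libraries. The irradiated columns are mostly red, and replicate 3 of Atm+/+ passage 2 and of Atm-/- passage 8 mix dark blue and dark red where their groups are even.

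Genes of DNA replication did not share this direction. Of 51 genes in a list of DNA replication and S phase genes, 30 fell after irradiation and 0 rose, with a median log2 fold change of -1.13. Among the 4 with the lowest p were the DNA ligase gene Lig1 (-1.95 ± 0.17, edgeR adjusted p = 1.20e-05), Rpa2 (-1.32 ± 0.15), the helicase subunit gene Mcm6 (-1.86 ± 0.21) and Tyms (-1.26 ± 0.14). The summed CPM of the list was 569 to 599 in irradiated libraries and 951 to 1095 in passage 2 libraries. The summed CPM of the 68 histone genes ran the other way, 611 to 661 against 173 to 257. Leaving out Hist1h1c and Hist1h2bc, which held 69.7% to 82.2% of the sum in every library, it was 130 to 145 against 38.4 to 51.5. Of the 51 replication genes, 37 fell and 1 rose in the 13 libraries.

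**Figure D3:**
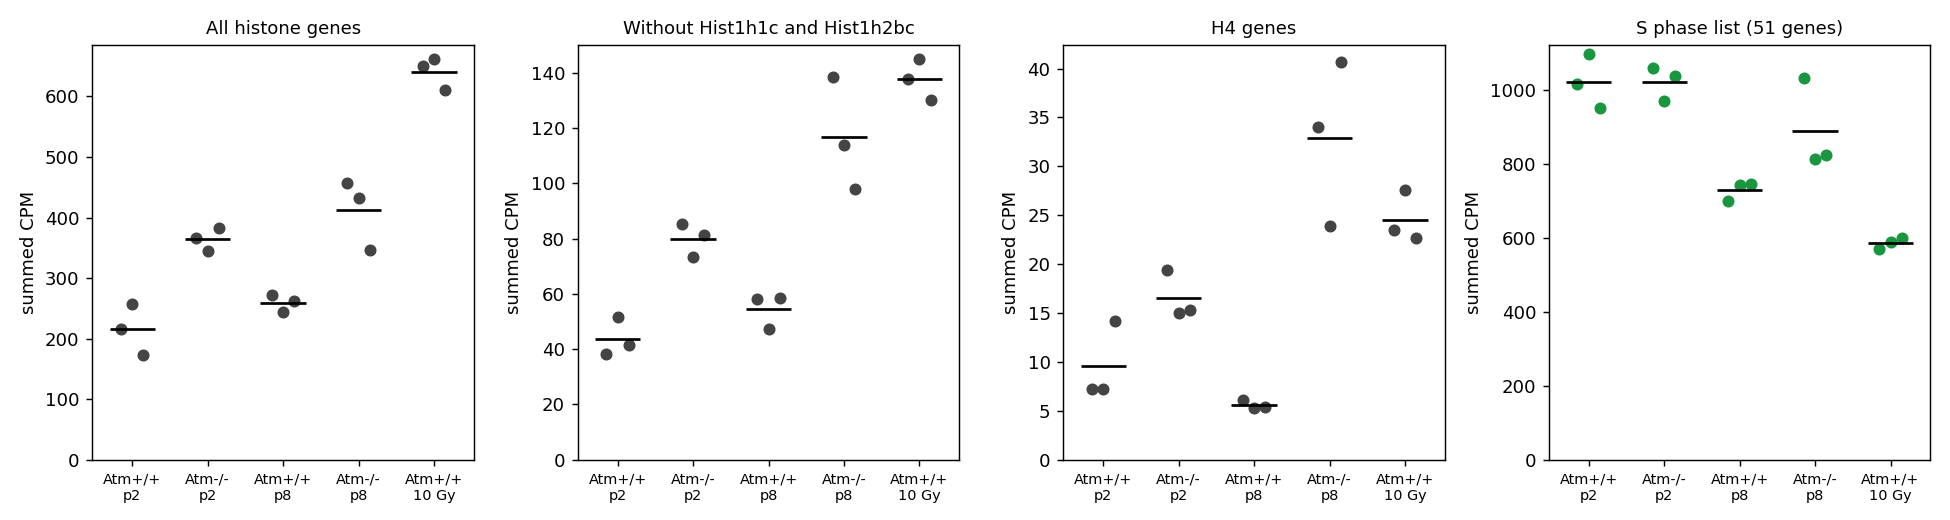
Each point is the summed CPM of a gene group in 1 library, and the bar is the mean of 3 libraries: all histone genes, histone genes without Hist1h1c and Hist1h2bc, H4 genes, and the S phase list. In irradiated cells the histone sums are high (611 to 661 CPM in the first panel) where the S phase sum is lowest (569 to 599 CPM).

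Among 11 genes of histone variants that are replication-independent or encoded outside the Hist clusters, 5 fell and 0 rose after irradiation. The 4 with the lowest p were Cenpa, which marks centromeres (-2.75 ± 0.22, edgeR adjusted p = 7.28e-06), H2afv (-1.66 ± 0.23), H2afx, whose product is phosphorylated at DNA breaks (-1.07 ± 0.16), and H2afy2 (-1.08 ± 0.21). Of 25 tested genes of histone mRNA transcription, 3′ end formation and decay, 1 rose (Cpsf2, 0.59 ± 0.16) and 4 fell (Srrt, Lsm10, Dxo and Exosc10), and 3 rose and 8 fell in the 13 libraries. Slbp, the stem-loop binding protein gene, was at 13.8, 15.1 and 13.7 CPM against 9.03, 16.1 and 5.80 CPM, and its groups overlapped. Of 29 chaperone and deposition genes 1 rose and 7 fell (5 and 11 in the 13 libraries), the latter including Nasp (-1.18 ± 0.18) and the CAF-1 subunit gene Chaf1b (-2.10 ± 0.40). Over all genes tested, 11% were called higher and 16.5% lower, and 22.9% and 23.3% in the 13 libraries. The 4 of 25 called lower were thus near the share of all genes.

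Set against Atm+/+ cells at passage 8, which had 40.69 to 70.63 CPM of macrophage markers where irradiated cells had 1192 to 2148, irradiated cells again had higher histone levels. All 34 tested members had a positive log2 fold change, with a median of 1.46 against -0.01 over all genes. In edgeR 9 members were higher and 0 lower, where 4.3% of all genes tested were called higher and 2.59% lower. In 31 of the 34 every irradiated library was above every passage 8 library, which held for 22.8% of all genes. The count moved with the libraries fitted, with 0 lower in each fit. Where only these 6 libraries were fitted, 30 of the 30 members tested there were higher, where 18.5% of all genes were called higher and 18.0% lower. In the 13 libraries 31 of 36 were higher, where 13.2% of all genes were called higher and 12.3% lower. It was 4 without passage 8 replicate 1 or 2 (2.63% and 2.62% of all genes called higher) and 6 without any 1 of the other 4 libraries (2.82% to 3.23%). Smooth muscle and pericyte markers summed to 9089 to 9472 CPM at passage 8, and the part of both marker lists in the result was not tested. This comparison shares its irradiated libraries with the one before it. The low-count filter keeps a member with enough counts in as many libraries as a group holds. Members scarce at passage 8 could thus be kept for their irradiated libraries alone. Hist1h4a, for example, had 35, 34 and 15 counts after irradiation and 3, 1 and 3 at passage 8. The shared direction of the 34, and of the 30, may therefore be partly set by the filter.

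The 9 were Hist1h1c, Hist1h2bc, Hist1h2be, Hist1h2ba, Hist2h3c2, Hist1h4i, Hist1h4h, Hist1h4j and Hist1h4a. Hist1h1c was at 137, 121 and 131 CPM at passage 8, so that the irradiated libraries were higher by a log2 value of 1.51 ± 0.19 (edgeR adjusted p = 0.000247). Hist1h2bc was at 76.8, 75.8 and 71.5 CPM at passage 8 (0.82 ± 0.12, adjusted p = 0.000934). The H4 genes were scarce at passage 8. Hist1h4i was at 2.73, 2.37 and 2.58 CPM at passage 8 (1.75 ± 0.27, adjusted p = 0.00104), Hist1h4h at 1.35, 1.19 and 1.21 CPM (2.71 ± 0.54, adjusted p = 0.00682) and Hist1h4j at 0.316, 0.339 and 0.412 CPM (2.79 ± 0.60, adjusted p = 0.0111). The passage 8 libraries were tight for all 3 and did not meet the irradiated ones. Of the S phase list 8 genes fell and 0 rose, led by Rrm2 (-1.33 ± 0.24), Uhrf1 (-1.49 ± 0.28) and Mcm10 (-1.56 ± 0.32), and in the 13 libraries 25 fell and 0 rose. Of 9 tested members listed from textbook knowledge as also making polyadenylated mRNA, 6 were higher, and of the 25 others 3 were. The medians were 1.41 and 1.54, and in the 13 libraries 9 of 9 listed and 22 of 27 others were higher. Against passage 2 cells 6 of the 9 and 11 of the 25 were higher, and in the 13 libraries 7 of 9 and 19 of 27.

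**Figure D4:**
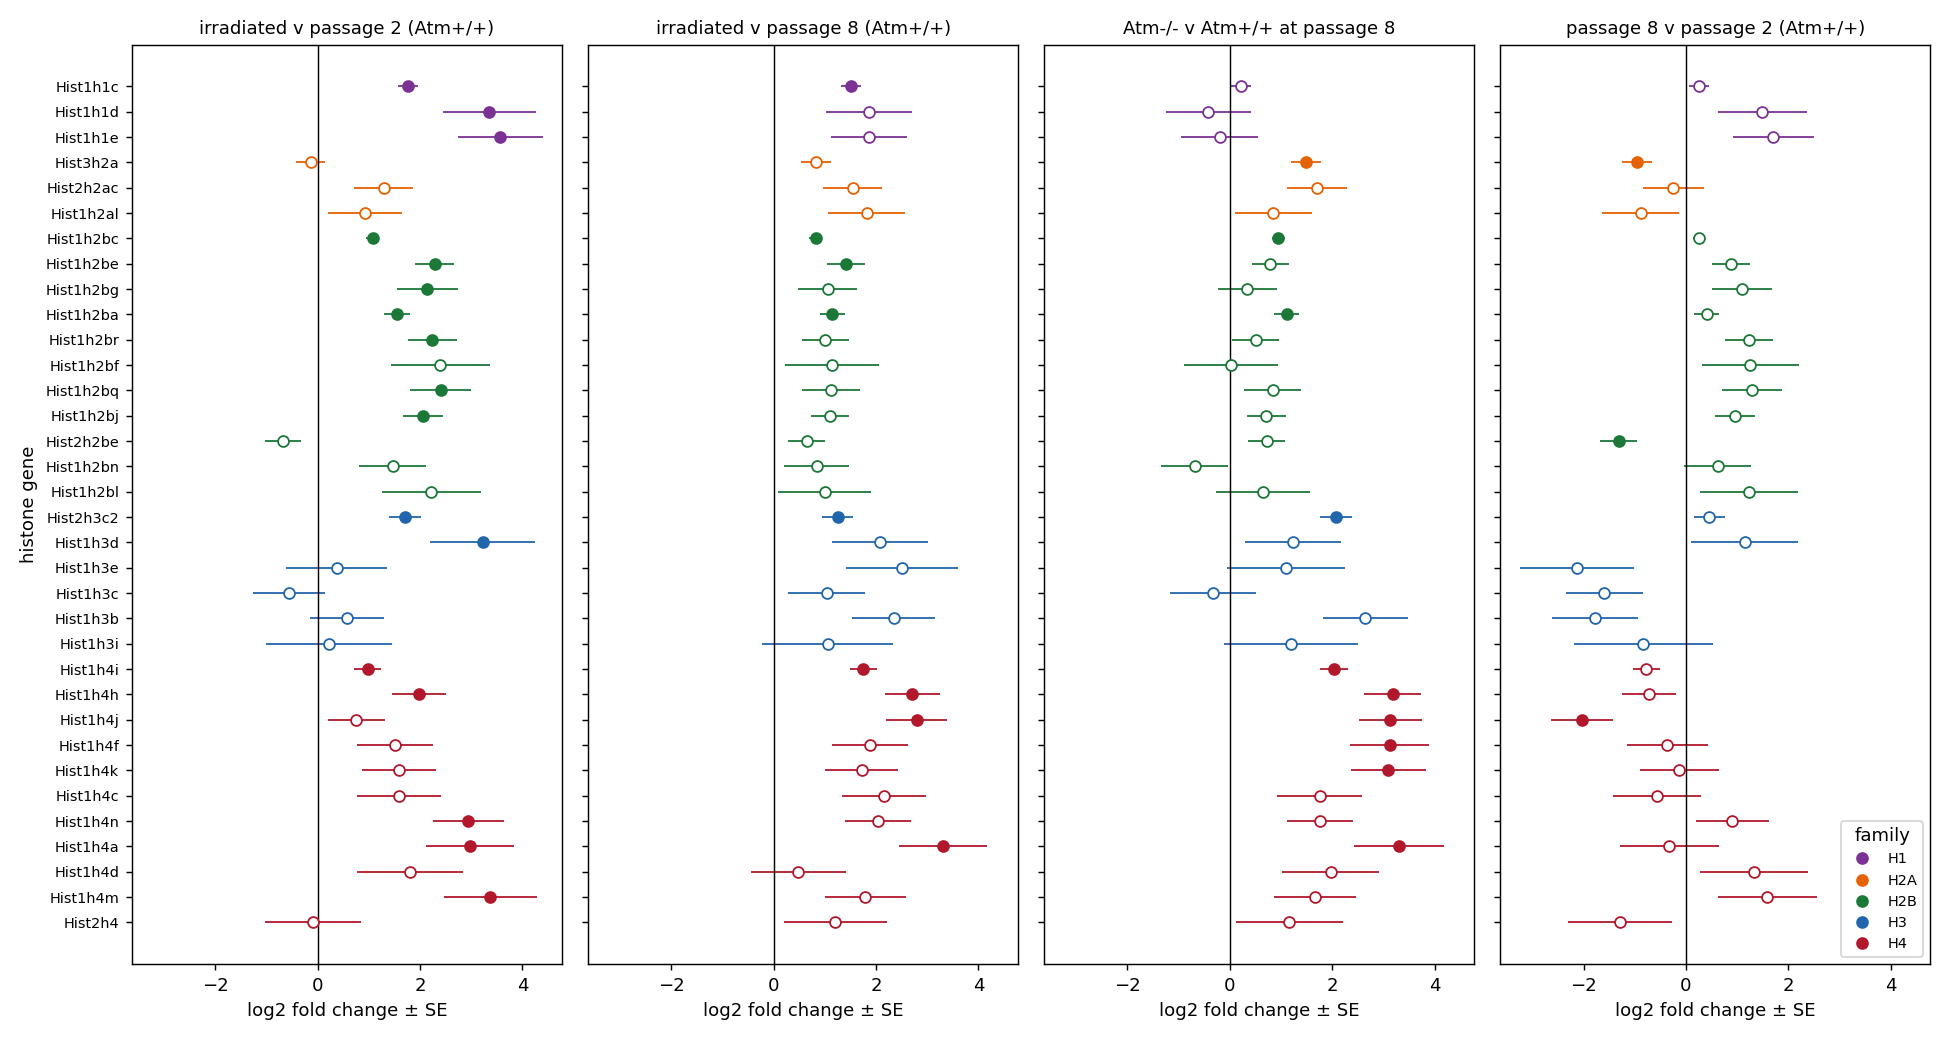
Points are edgeR log2 fold changes with their SE for the 34 tested histone genes in 4 comparisons, coloured by family and filled where the adjusted p was under 0.05. All 34 points are above 0 for irradiated against passage 8 cells. For Atm-/- against Atm+/+ cells at passage 8, 6 of the 11 H4 genes are filled and no point is filled below 0. For passage 8 against passage 2 of Atm+/+ cells, 3 points are filled, all below 0.

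At passage 8, the comparison of genotypes asks what differs without Atm, a kinase activated by broken DNA, after serial culture. Histone genes of 4 families were higher in Atm-/- cells. In edgeR 10 of 34 members were higher and 0 lower, where 5.03% of all genes tested were called higher and 4.29% lower. In 16 members every Atm-/- library was above every Atm+/+ library, which held for 16.8% of all genes. The median was 1.14 against -0.08 over all genes. H4 supplied 6 of the 10 (Hist1h4a, Hist1h4f, Hist1h4h, Hist1h4i, Hist1h4j and Hist1h4k), and its 11 tested genes had a median of 2.04, against 0.71 over the 11 H2B genes and -0.20 over the 3 H1 genes, none of which passed. The families were not tested against one another. The rest were Hist1h2bc, Hist1h2ba, Hist2h3c2 and Hist3h2a. In the 13 libraries 25 of 36 members were higher and 0 lower, where 13.3% of all genes were called higher and 11.8% lower. These were 9 of 11 H4, 9 of 11 H2B, 4 of 7 H3, 2 of 3 H2A and 1 of 4 H1 genes, with medians of 2.15 for H4, 0.83 for H2B and 0.33 for H1. None of 28 tested members passed in edgeR where only the 6 passage 8 libraries were fitted, where 0.0863% of all genes were called higher. There 13 of the 28 had an unadjusted p under 0.05, as did 20.3% of all genes. Without any 1 of the Atm+/+ passage 8 libraries 6 members passed, where 1.41% to 1.86% of all genes were called higher. The fibroblast marker sum was lower in Atm-/- cells (5336 to 8026 CPM against 19430 to 25590 CPM), and the sum of 4 mesothelial markers was higher (10.15 to 46.53 CPM against 2.748 to 4.282 CPM). Smooth muscle and pericyte markers summed to 4648 to 5707 CPM against 9089 to 9472 CPM. Their part in the result was not tested.

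Hist1h4i was at 15.0, 9.47 and 7.10 CPM in Atm-/- cells and 2.73, 2.37 and 2.58 CPM in Atm+/+ cells. The mutant libraries were spread but all above the wild-type ones (2.04 ± 0.27, edgeR adjusted p = 0.000973). Hist1h4h was at 9.34, 7.29 and 17.6 CPM against 1.35, 1.19 and 1.21 CPM (3.18 ± 0.55, adjusted p = 0.00432). Its highest value was in the Atm-/- library that stood apart, and in the 13 libraries the log2 fold change was 2.75. Hist1h4j was even across the 3 mutant libraries, at 3.00, 2.92 and 3.59 CPM against 0.316, 0.339 and 0.412 CPM (3.14 ± 0.61, adjusted p = 0.0077).

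The H3 gene Hist2h3c2 was at 8.87, 9.22 and 14.1 CPM in Atm-/- cells and at 2.61, 2.27 and 2.69 CPM in Atm+/+ cells (2.08 ± 0.31, adjusted p = 0.00191). The H2A gene Hist3h2a was at 8.50, 7.03 and 5.26 CPM against 1.66, 3.15 and 2.61 CPM (1.49 ± 0.30, adjusted p = 0.00811). Hist1h2bc was at 162, 142 and 128 CPM against 76.8, 75.8 and 71.5 CPM (0.95 ± 0.12, adjusted p = 0.000944), and Hist1h2ba at 13.4, 11.9 and 12.5 CPM against 5.57, 5.70 and 6.23 CPM (1.11 ± 0.25, adjusted p = 0.0144). In these 4 genes no mutant library overlapped a wild-type one. Hist1h1c did overlap, at 156, 176 and 121 CPM against 137, 121 and 131 CPM (0.22 ± 0.19, adjusted p = 0.471). Its 121 CPM in Atm-/- cells was in the library that stood apart, and in the 13 libraries it passed with 0.37 (adjusted p = 0.0267). Of the S phase list 8 of 51 genes were higher and 0 lower, with a median of 0.19, and in the 13 libraries 17 were higher and 0 lower. The 4 with the lowest p were Dut (0.67 ± 0.14), Mcm6 (0.83 ± 0.20), Ccne1 (0.57 ± 0.15) and Mcm2 (0.68 ± 0.18).

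**Figure D5:**
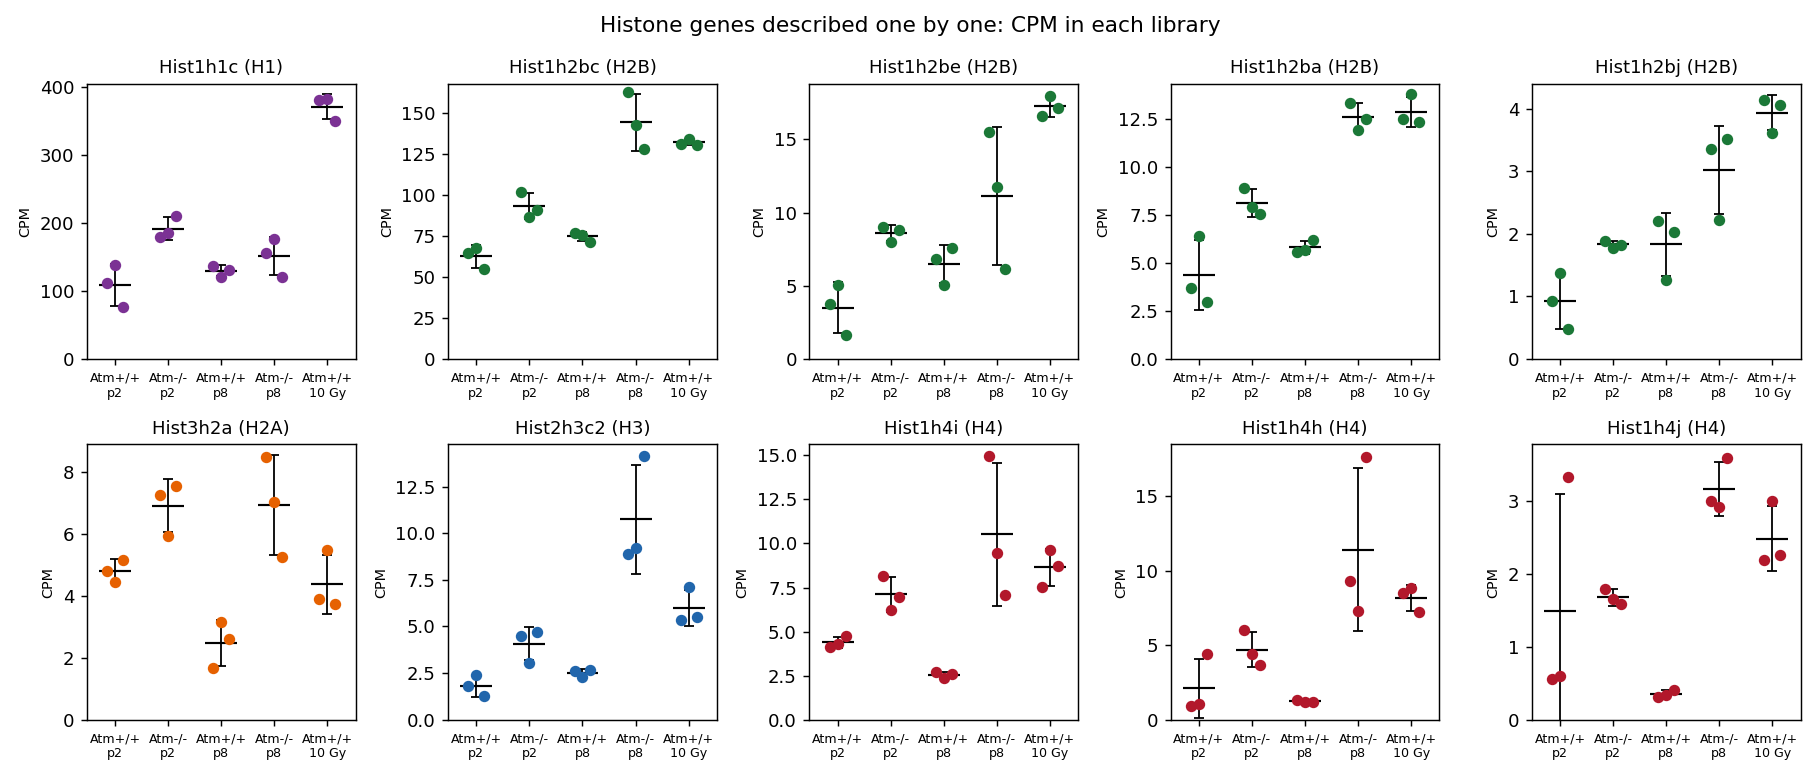
Points are CPM in single libraries for the 10 histone genes described one by one, by group on the x axis, with the mean (long bar) and SD of 3 libraries. Hist1h1c is highest in irradiated cells (350 to 382 CPM) and lies at 179 to 210 CPM in Atm-/- passage 2 cells. Hist2h3c2 is highest in Atm-/- passage 8 cells (8.87 to 14.1 CPM). Hist1h2ba lies at 11.9 to 13.4 CPM in Atm-/- passage 8 cells and 12.4 to 13.8 CPM after irradiation.

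The ratio of Hist1h1c to Hist1h2bc CPM, not scaled by length and chosen after the values were seen, was 2.68 to 2.90 after irradiation and 0.948 to 1.24 in Atm-/- passage 8 cells. It was 1.40 to 2.32 in the other 9 libraries, so the 3 sets did not overlap. The summed H4 level was 22.6 to 27.6 CPM after irradiation and 24.0 to 40.7 CPM in Atm-/- passage 8 cells, against 5.33 to 6.11 CPM in Atm+/+ passage 8 cells. At passage 2 it was 15.0 to 19.4 CPM in Atm-/- and 7.23 to 14.2 CPM in Atm+/+ cells. Irradiated Atm+/+ and passage 8 Atm-/- cells differ in genotype, passage and treatment, and the difference between them was not tested.

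At passage 2 the genotypes differed in 1 histone gene. Hist1h2bc was at 102, 86.3 and 90.8 CPM in Atm-/- cells and 64.8, 67.8 and 54.8 CPM in Atm+/+ cells (0.57 ± 0.12, edgeR adjusted p = 0.0451). It was the 1 member called higher of 34, with 0 lower, where 0.628% of all genes tested were called higher and 0.341% lower. The remaining 33 had no call, although in 20 of the 34 every Atm-/- library was above every Atm+/+ library, which held for 13.7% of all genes, and the median was 1.00 against 0.04 over all genes. Hist1h1c, the next by p, was at 179, 186 and 210 CPM against 112, 138 and 76.8 CPM (0.82 ± 0.19, adjusted p = 0.0675), and passed in the 13 libraries (0.64, adjusted p = 0.00604). In the 13 libraries 9 of 36 members were higher and 0 lower, where 3.27% of all genes were called higher and 2.08% lower. No member passed where only the 6 passage 2 libraries were fitted (9 of 28 at an unadjusted p under 0.05 in edgeR, as were 13.4% of all genes), nor without Atm+/+ replicate 1 or any 1 of the Atm-/- libraries, and 7 passed without Atm+/+ replicate 2, where 5.54% of all genes were called higher. The macrophage marker sum was 851 to 1405 CPM in Atm-/- and 1913 to 3374 CPM in Atm+/+ cells. That of smooth muscle and pericyte markers was 5800 to 7272 CPM and 3163 to 4077 CPM. Their part in the result was not tested. Of the S phase list 0 of 51 genes passed either way in edgeR, and 1 was lower in the 13 libraries.

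Between passage 2 and passage 8 of Atm+/+ cells few histone genes passed. Of 34 members 0 were higher and 3 lower in edgeR, where 9.8% of all genes tested were called higher and 13.5% lower. The 3 were Hist3h2a, Hist2h2be and Hist1h4j. Hist3h2a went from 4.81, 4.44 and 5.18 CPM to 1.66, 3.15 and 2.61 CPM (-0.96 ± 0.29, adjusted p = 0.0312), with no overlap. Hist2h2be went from 2.14, 2.44 and 4.69 CPM to 1.41, 1.12 and 1.18 CPM (-1.31 ± 0.36, adjusted p = 0.0191). Hist1h4j (-2.03 ± 0.60, adjusted p = 0.0271) was at 3.34 CPM in the passage 2 library that stood apart. Without that library and the Atm-/- passage 8 one the value was -0.68 (adjusted p = 0.0858), and the call was also lost without any 1 of the passage 8 libraries. In the 13 libraries 6 members were higher, among them 5 H2B genes, and 3 lower (Hist3h2a, Hist2h2be and Hist1h4i), where 19.8% of all genes were called higher and 20.3% lower. None passed where only these 6 libraries were fitted (4 of 21 at an unadjusted p under 0.05 in edgeR, as were 35.2% of all genes) or without passage 2 replicate 3 or passage 8 replicate 3 alone. Without passage 8 replicate 1 or 2 it was 1, and without passage 2 replicate 2 it was 8, 5 of them higher, where 18.1% of all genes were called higher and 17.0% lower. The S phase list fell in 19 of 51 genes and rose in 0, and in the 13 libraries fell in 32 and rose in 1. Macrophage markers went from 1913 to 3374 CPM down to at most 70.63 CPM over the same interval, and smooth muscle and pericyte markers from 3163 to 4077 CPM up to 9089 to 9472 CPM. Their part in these values was not tested.

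In Atm-/- cells 2 members were higher at passage 8 and 0 lower in edgeR, where 4.76% of all genes tested were called higher and 8.25% lower. Hist1h2bc went from 102, 86.3 and 90.8 CPM to 162, 142 and 128 CPM (0.63 ± 0.12, adjusted p = 0.00358). Hist2h3c2 went from 4.51, 3.05 and 4.69 CPM to 8.87, 9.22 and 14.1 CPM (1.39 ± 0.30, adjusted p = 0.00729). Neither overlapped between passages. None passed where only these 6 libraries were fitted (5 of 30 at an unadjusted p under 0.05 in edgeR, as were 19.5% of all genes). Without passage 8 replicate 2 it was 4, where 8.34% of all genes were called higher, and DESeq2 called 4, where 7.84% were. Macrophage markers went from 851 to 1405 CPM down to 28.06 to 42.86 CPM and fibroblast markers from at least 15500 CPM down to at most 8026 CPM, and their part in the result was not tested. In the 13 libraries 14 of 36 were higher and 0 lower, 8 of them H2B and 5 H4, where 12.8% of all genes were called higher and 14.4% lower. All 11 tested H4 genes had a positive value, with a median of 1.22, and none passed with all 15 libraries.

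The difference between these passage effects asks whether serial culture changed a gene differently without Atm. No member passed in edgeR (9 had an unadjusted p under 0.05, as did 29.6% of all genes), where 2.46% of all genes tested were called higher and 1.97% lower. Without Atm+/+ passage 2 replicate 2 it was 5 of 37, 1 of them lower (12.3% of all genes called each way). Without Atm-/- passage 8 replicate 2 or 3 it was 3 or 1 of 37 (9.59% and 2.79% called higher). DESeq2 called 7 of 34, all with a higher passage effect in Atm-/- cells, where 11.8% of all genes were called higher. The smallest edgeR values were those of Hist1h4i (1.35 ± 0.37, adjusted p = 0.0536) and Hist1h4j (2.94 ± 0.82, adjusted p = 0.0537). In the 13 libraries 4 members passed, namely Hist1h2bc, Hist1h4i, Hist1h4j and Hist2h4, each with a higher passage effect in Atm-/- cells, where 6.54% of all genes were called higher and 7.28% lower. Whether histone genes were called for a difference between the genotypes in the passage effect therefore depended on the tool and the libraries used. The share of all genes called changed with them as well.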

How the data were processed

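RNA was sequenced from 15 cultures (TruSeq RNA libraries per the labels). The authors deposited whole-number counts per gene, made with featureCounts and SAMtools 1.3.1 on mm10 per the submitters' processing notes, and a table of TPM. The labels and notes name no aligner, annotation version or strand setting, nor how reads matching several copies were treated. Symbols, transcripts and overlaps came from GENCODE vM21 (GRCm38) by Ensembl gene ID without version (48058 of 48440 genes matched, 22 members under another version); promoters came from RefSeq (GRCm38.p6). Hist1h2bm and Hist1h2bh were not analysed here.

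The counts were fitted with edgeR 4.0.16 (R 4.3.3): TMM, filterByExpr by group (18167 genes), 1 robust quasi-likelihood fit over 15 libraries, 7 contrasts, Benjamini-Hochberg adjusted p under 0.05. CPM used TMM sizes, and SE is the log2 fold change over the root of F. DESeq2 1.42.0 and limma 3.58.1, the latter on log2(TPM + 1) and log2(TPM + 0.1) of the deposited TPM, were alternatives, with other filters, single groups, a replicate block and each library left out. The steps were tested on simulated data. A 50-base window counted as unique if found in no other gene's transcripts. Members described one by one were the 10 with the lowest p over the 7 comparisons, since more than 10 passed; up to 4 genes per list were named by p, and Slbp, Hist1h1d, Hist1h1e, Hist1h2bf, Hist1h3d and Hist2h2be were named after their values were seen. The members and lists were chosen with earlier results of these data known. The labels do not say that each number is a separate strain, so p-values measure the spread between these libraries. Replicate numbers were not used as pairs.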

Additional observations from a re-analysis of the deposited data

How the results depend on the processing

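Of 420 values for the calls on the 10 genes described, under all alternatives run, 352 kept their call, 68 lost it and none changed sign. The comparisons are given in the order passage 2 genotypes, passage 8 genotypes, Atm+/+ passages, Atm-/- passages, irradiated against passage 2, irradiated against passage 8, and difference of passage effects, where the main counts were 1, 10, 3, 2, 17, 9 and 0 called. Leaving out 1 library at a time gave 0 to 7, 6 to 11, 0 to 8, 2 to 4, 13 to 18, 4 to 6 and 0 to 5. The values of 7, 8 and 5 came without Atm+/+ passage 2 replicate 2, of 37 tested. There 9.58%, 35.2% and 24.7% of all genes were called either way. Without the 2 libraries that stood apart, chosen after seeing the data, the counts were 9, 25, 9, 14, 26, 31 and 4 of 36. The shares of all genes called either way were 5.35%, 25%, 40.1%, 27.2%, 46.3%, 25.5% and 13.8%. DESeq2 tested 34 members. It gave 6 for the first, 7 and 4 for the passages, 15 for irradiated against passage 8 and 7 for the last. The shares of all genes called either way by DESeq2 were 5.06%, 32.5%, 20%, 11% and 19.4%. With only the groups compared the first 4 counts were 0 (9, 13, 4 and 5 at an unadjusted p under 0.05 in edgeR). That for irradiated against passage 8 was 30. In these 5 fits 28, 28, 21, 30 and 30 members were tested. Of all genes 0.233%, 0.111%, 15.9%, 5.12% and 36.4% were called. No filter gave 0 of 60 for the first (16 unadjusted), where 0.524% of all genes were called. The strict filter gave 2 of 18 for the first and 2 of 18 for the last, where 1.33% and 9.37% were. DESeq2 size factors in edgeR gave 1 of 34 for the last, where 4.4% of all genes were called. limma tested 38 members. On log2(TPM + 1) it gave 2 for the first, 1 for the Atm-/- passages, and 26 and 18 for irradiated against passage 2 and 8. Of all genes 1.41%, 13.2%, 32.7% and 5.78% were called. On log2(TPM + 0.1) it gave 0 for the first (18 unadjusted) and 1 for each of the passage comparisons, a lower gene in Atm-/- cells. There 0.792%, 15.4% and 12.4% of all genes were called. On log2(TPM + 1) the median of all genes was shifted, to -0.29 for genotypes at passage 8 and 0.32 for irradiated against passage 2, and members' calls should be read against that shift. The causes were not tested.

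Same-numbered libraries deviated together with a correlation over 0.1 in 6 of 18 pairs, and 8 of 18 correlated best with their own number, so the numbers were not taken as pairs. A replicate block gave 1, 9, 3, 2, 17, 9 and 0 of 34 called. Of all genes 0.776%, 8.27%, 22.7%, 12.3%, 26.5%, 6.36% and 3.18% were called there. Counting error limits the members under about 1 CPM, and copies sharing most of their sequence cannot be separated.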
